A study of Mus musculus with 48 samples.

Results

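A set of 6 genes tied to the juxtaglomerular apparatus, the contact site between tubule and arteriole at which the kidney sets renin output, was followed in mouse kidney slices: Pappa2, Sucnr1, Nos1, Ptgs2, Ren1 and Akr1b7. They are 6 of the 55487 genes in the raw count table and were found by matching its Ensembl IDs to these symbols. Pappa2 and Sucnr1 were selected on their large differences between culture times and oxygen conditions, so their differences between time points and oxygen conditions are given as description, without a test. The other 4 were included as markers of the apparatus. All 6 were tested for drug, strain and strain-by-condition differences.

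The study exposed slices of male kidney from 2 inbred strains, C57BL/6J and DBA/2J, to perturbations outside the body and sequenced their polyadenylated RNA. Each strain had 8 conditions with 3 libraries each, 48 libraries in 16 groups. The conditions were control slices at 6 h and at 24 h, cyclosporin A and tunicamycin at each of these hours, and 2 oxygen conditions, normoxia and normoxia-hyperoxia. Tunicamycin blocks protein N-glycosylation and cyclosporin A inhibits the phosphatase calcineurin. The labels call normoxia a model of ischemia and normoxia-hyperoxia a model of reperfusion, and the titles place both at 24 h. They are set here against the 24 h controls, so the time and oxygen comparisons share control libraries, as do the drug comparisons at the same hour. No genetic change was made in either strain, and no group is a cell line or a transgenic model. The animals' age, the drug concentrations, the oxygen supplied to control slices and whether slices of different groups came from the same mouse were not given in the sources used here. Where replicates were not separate animals, p-values measure only the spread between these libraries.

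As background, the macula densa is a plaque of tubule cells at the end of the thick ascending limb that senses salt delivery through the Na-K-2Cl cotransporter. When salt delivery falls it produces prostaglandin E2 and nitric oxide, which act on the renin-making juxtaglomerular cells of the afferent arteriole. Pappa2 encodes a secreted protease that cleaves the insulin-like growth factor binding proteins IGFBP3 and IGFBP5 and is a marker of macula densa cells. Nos1 encodes the neuronal nitric oxide synthase, the isoform of the macula densa, and Ptgs2 encodes cyclooxygenase-2, the inducible enzyme of prostaglandin synthesis. Sucnr1 encodes the receptor for extracellular succinate, which has been linked to renin release. Ren1 encodes renin, the protease that cuts angiotensinogen. Akr1b7 encodes an aldo-keto reductase that is found together with renin in juxtaglomerular cells and is also made in the adrenal cortex.

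In the annotation of GRCm38 used here (GENCODE M21), Pappa2 (ENSMUSG00000073530) lies at chr1:158711727-158980490 on the minus strand, Ptgs2 (ENSMUSG00000032487) at chr1:150100031-150108227 on the plus strand and Ren1 (ENSMUSG00000070645) at chr1:133350510-133360325 on the plus strand. Sucnr1 (ENSMUSG00000027762) lies at chr3:60081869-60087566, Nos1 (ENSMUSG00000029361) at chr5:117781032-117958840 and Akr1b7 (ENSMUSG00000052131) at chr6:34412334-34423142, all on the plus strand. All 6 are protein-coding. The values below are counts over exons of whole genes. Exons of Pappa2 share 310 bases with 1600012P17Rik on the same strand, a gene whose highest level in any library was 0.102 CPM (counts per 1000000 counts of the library). Exons of Nos1 share 268 bases with the antisense gene Gm26995, which reached at most 0.0517 CPM, and exons of Akr1b7 share 348 bases with the antisense gene Gm13857, which reached at most 0.242 CPM. Whether the counting used strand is not given in the sources used here.

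The start regions of the members are shown because they moved in opposite directions under the same oxygen conditions, and because Ptgs2 moved most. RefSeq start sites on GRCm38.p6 were found for 6 of 6 members, and the window from 250 bases before to 50 bases after each start was searched on both strands. The motifs were the hypoxia-response core (ACGTG or GCGTG), the cyclic AMP response element TGACGTCA and its first bases TGACG, the AP-1 site (TGAGTCA or TGACTCA) and the TATA box TATAAA. Capitals mark matches, read on the printed strand, so that CGTCA is TGACG, and CACGT and CACGC are hypoxia cores, on the opposite strand. The 3 upstream runs lie at chr3:60081619-60081868 for Sucnr1, chr5:117866589-117866838 for Nos1 and chr1:150099781-150100030 for Ptgs2, all on the plus strand and ending at the base before the start. The 30-base runs are chr1:150100033-150100062 on the plus strand for Ptgs2, just inside the transcript, and chr1:158958188-158958217 on the minus strand for Pappa2, just before the start.
Sucnr1: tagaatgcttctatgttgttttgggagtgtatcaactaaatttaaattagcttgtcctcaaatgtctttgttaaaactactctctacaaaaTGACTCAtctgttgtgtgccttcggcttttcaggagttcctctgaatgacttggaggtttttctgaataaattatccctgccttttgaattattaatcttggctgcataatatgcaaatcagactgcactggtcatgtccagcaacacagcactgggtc
Nos1: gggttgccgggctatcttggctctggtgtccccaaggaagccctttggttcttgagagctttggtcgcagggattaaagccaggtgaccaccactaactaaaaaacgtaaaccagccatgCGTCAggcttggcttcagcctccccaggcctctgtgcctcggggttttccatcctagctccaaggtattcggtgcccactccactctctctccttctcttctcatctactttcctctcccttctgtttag
Ptgs2: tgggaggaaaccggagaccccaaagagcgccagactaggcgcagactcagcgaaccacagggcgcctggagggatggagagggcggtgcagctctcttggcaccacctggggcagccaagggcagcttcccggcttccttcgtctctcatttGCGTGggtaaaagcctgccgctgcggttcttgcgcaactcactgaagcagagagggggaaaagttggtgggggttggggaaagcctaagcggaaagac
Ptgs2 start: agtcaccactaCGTCACGTGgagtccgctt
Pappa2 start: aaccccgagtgcCACGCtgcaggagtgctc
In these runs Sucnr1 has 1 AP-1 site at -159, Nos1 has TGACG at -130, and Pappa2 has 1 hypoxia core at -30. Ptgs2 has a hypoxia core at -98, and inside the transcript TGACG at 14 overlaps an ACGTG core on both strands at 17 and 18. Ren1 has TATAAA at -29, and none of these letters occurs in the Akr1b7 window. Among 32544 mouse promoter windows of this length, 44% hold a hypoxia core, 20.9% hold TGACG, 1.8% hold TGACGTCA, 5.19% hold an AP-1 site and 13.6% hold TATAAA. The RefSeq starts of Nos1, Pappa2, Ren1 and Akr1b7 lie inside the gene models given above.

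Library totals ran from 5619309 counts (DBA/2J normoxia-hyperoxia replicate 2) through 12384733, the next lowest, to 25137581, with a median of 19607361. The mitochondrial share of counts moved with hour and oxygen: it was 3.11% to 7.87% in control and drug libraries at 24 h, 8.05% to 17.8% in those at 6 h, 11.8% to 25.6% in normoxia and 10.98% to 17.4% in normoxia-hyperoxia. In 6 h controls it was 14.81% to 16.3% in C57BL/6J and 8.047% to 8.325% in DBA/2J. In normoxia it was 22.77% to 25.65% and 11.77% to 12.83%, while in normoxia-hyperoxia the strains overlapped. The part of the mitochondrial share in the results was not tested beyond a fit without mitochondrial genes, which changed no member's call. Kidney identity was checked on marker sums given below: thick ascending limb and proximal tubule genes were present in every group. The reads of both strains were aligned to GRCm38, the C57BL/6J reference. DBA/2J also carries a second renin gene, and its reads, if counted as Ren1, cannot be told apart from Ren1 reads here. In bulk slices, fewer cells of a type and less RNA per cell cannot be told apart.

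Levels are given as CPM of the library total. Fold changes are log2 ratios from edgeR after trimmed-mean (TMM) scaling, as the mean of both strains unless a strain is named. A difference was called at a Benjamini-Hochberg adjusted p under 0.05 over all genes tested. With library totals in place of TMM the median log2 ratio of all genes was 0.19 at 24 h against 6 h, -0.22 in normoxia and -0.17 in normoxia-hyperoxia against 24 h, where it had been -0.02, 0.05 and 0.0036, and no member's call changed.

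Ren1 was the most abundant member per exon length, with a median over 48 libraries of 81.8 CPM per kb, followed by Akr1b7 with 15.2, Ptgs2 with 7.71, Sucnr1 with 1.79, Pappa2 with 0.554 and Nos1 with 0.36. Ptgs2 ran from 0.481 to 257 CPM and Sucnr1 from 0.242 to 67.0 CPM. Pappa2 ran from 0 to 42.3 CPM and had 3 counts or fewer in 5 libraries. Ren1 ran from 36.8 to 883 CPM, Akr1b7 from 2.24 to 65.1 CPM and Nos1 from 0.624 to 16.8 CPM. With the 8 conditions of a strain ordered by mean, most neighbours overlapped: for Ren1 all 7 neighbouring pairs overlapped in each strain, for Pappa2 6 of 7 in C57BL/6J and 5 of 7 in DBA/2J, and for Nos1 6 and 4 of 7.

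**Figure D1:**
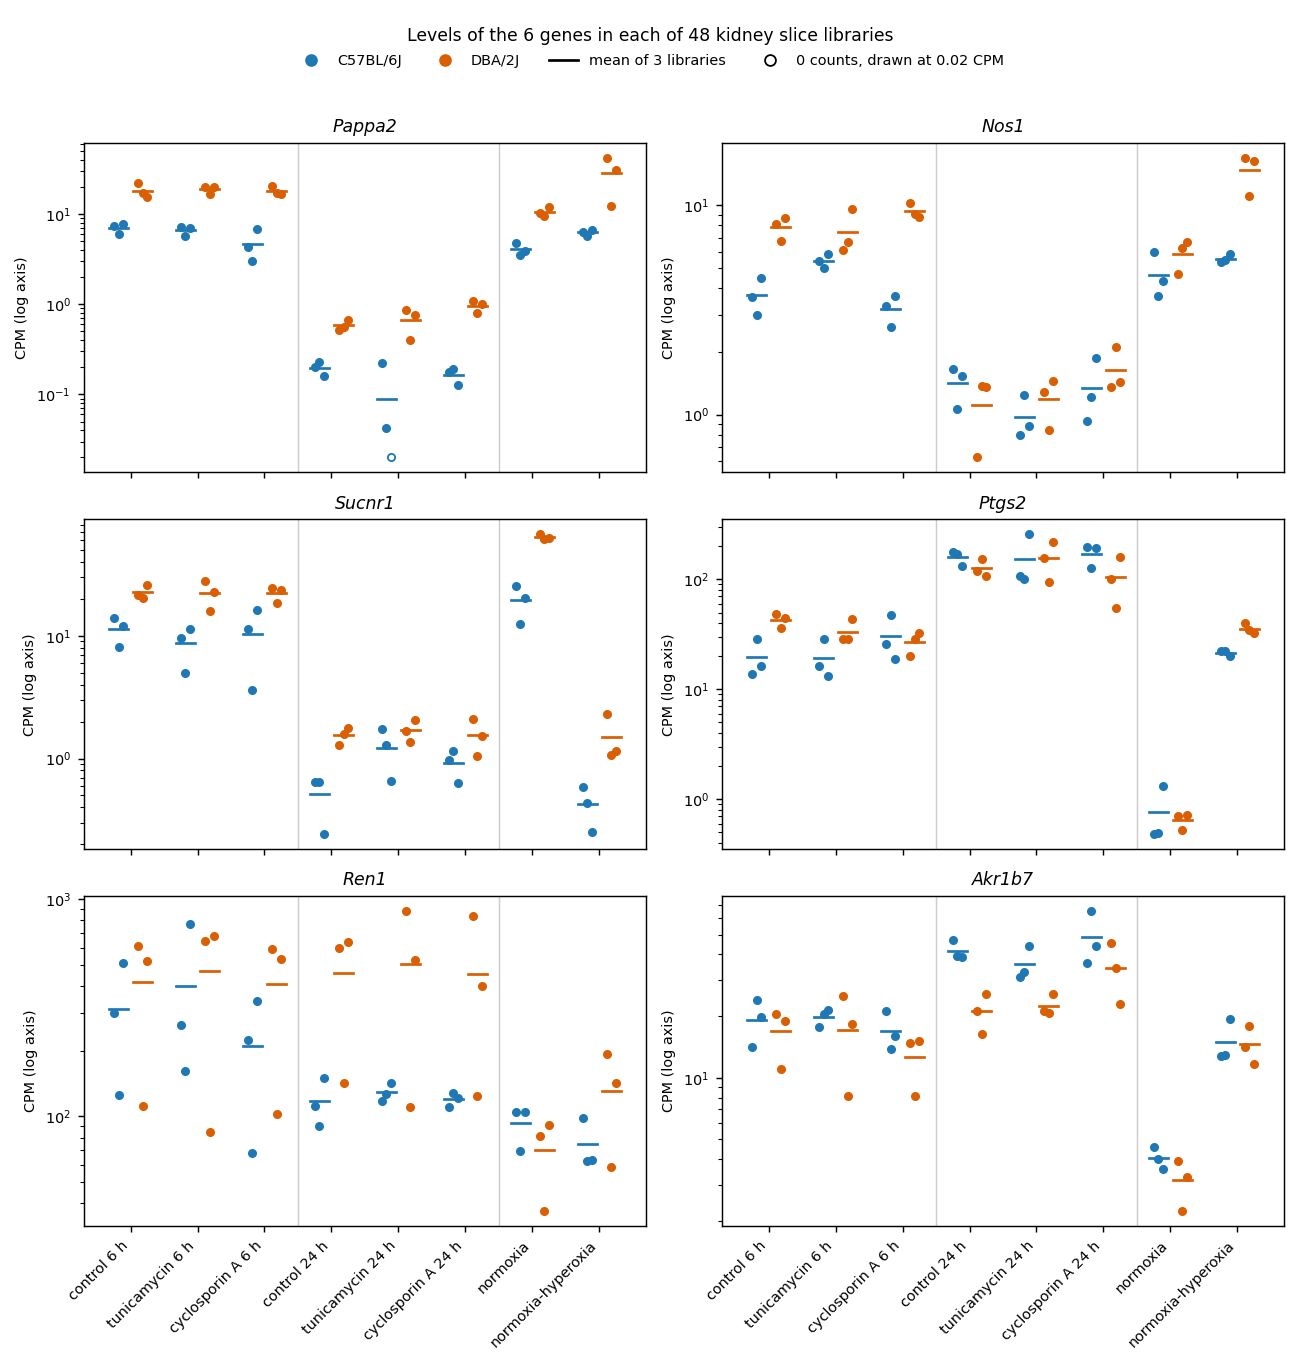
Level of each member in all 48 libraries, in CPM on a log axis, by condition and strain. Points are libraries, bars are means of 3, and the open circle drawn at 0.02 stands for the library with 0 Pappa2 counts. Pappa2 and Sucnr1 are low in the 24 h control and drug groups, Sucnr1 is high in normoxia and low again in normoxia-hyperoxia, and Ptgs2 is lowest in normoxia.

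Of the 4 tested members, 3 were called at 24 h against 6 h controls, where 72% of 16962 genes were called. All 4 were called in normoxia against 24 h controls, where 82% of genes were called, and all 4 in normoxia-hyperoxia against 24 h controls, where 68.2% were. In normoxia-hyperoxia against normoxia 3 of 4 were called, beside 73.5% of all genes. Against 6 h controls, 3 of 4 were called in normoxia, beside 65.8% of genes, and 2 of 4 in normoxia-hyperoxia, beside 44.9%.

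Pappa2 was nearly lost from 24 h control slices and was present in both oxygen conditions at that hour. In C57BL/6J its level was 7.33, 5.97 and 7.86 CPM at 6 h and 0.199, 0.232 and 0.162 CPM at 24 h, the latter from 4, 5 and 2 counts. In DBA/2J it was 22.3, 17.1 and 15.4 CPM at 6 h and 0.52, 0.558 and 0.677 CPM at 24 h. Pooled over 3 libraries the C57BL/6J 24 h level was 0.203 CPM (exact Poisson 95% interval 0.102 to 0.364) and that of DBA/2J 0.577 CPM (0.392 to 0.819), intervals that cover counting error only. No 24 h control library of either strain came near any 6 h library of that strain. Normoxia libraries held 4.81, 3.56 and 3.93 CPM in C57BL/6J and 10.4, 9.48 and 11.9 CPM in DBA/2J. Normoxia-hyperoxia libraries held 6.39, 5.73 and 6.75 CPM in C57BL/6J and 42.3, 12.5 and 31 CPM in DBA/2J, the highest mean of the gene in any group. The DBA/2J library at 12.5 CPM was the shallowest of the series. In both strains every library of an oxygen condition lay above every 24 h control.

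As log2 ratios, Pappa2 differed by -5.23 (SE 0.17) between 24 h and 6 h controls, with -5.34 in C57BL/6J and -5.12 in DBA/2J. Against the 24 h controls it was higher by 4.51 (SE 0.17) in normoxia, with 4.51 in each strain, and by 5.45 (SE 0.33) in normoxia-hyperoxia. Relative to the 6 h controls, normoxia differed by -0.76 (SE 0.11) and normoxia-hyperoxia by 0.24 (SE 0.23). Both oxygen conditions lay close to the 6 h level and far from the 24 h level. Drug-treated slices followed the hour: C57BL/6J tunicamycin slices held 7.29, 5.68 and 6.99 CPM at 6 h and 0.223, 0.0429 and 0 CPM at 24 h, the last from 5, 1 and 0 counts. DBA/2J cyclosporin A slices held 20.5, 17.4 and 16.9 CPM at 6 h and 1.1, 0.808 and 1 CPM at 24 h.

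Nos1 fell between 6 h and 24 h in control slices and was higher again in both oxygen conditions. C57BL/6J held 3.63, 2.99 and 4.5 CPM at 6 h and 1.64, 1.07 and 1.53 CPM at 24 h. DBA/2J held 8.13, 6.73 and 8.69 CPM at 6 h and 0.624, 1.37 and 1.35 CPM at 24 h. The hours did not overlap in either strain, and the fall was -2.32 on the log2 scale (SE 0.19, edgeR, adjusted p = 6.8e-08). Normoxia gave 5.95, 3.66 and 4.34 CPM in C57BL/6J and 4.71, 6.25 and 6.64 CPM in DBA/2J, above every 24 h control. That rise was 2.34 (SE 0.20, edgeR, adjusted p = 2.28e-08). Against 6 h controls normoxia differed by -0.03 (SE 0.15, edgeR, adjusted p = 0.878), which was not called.

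In normoxia-hyperoxia Nos1 reached 5.38, 5.45 and 5.85 CPM in C57BL/6J and 16.8, 11 and 16.2 CPM in DBA/2J. The DBA/2J libraries were the highest of the series, and all 3 lay above all C57BL/6J libraries. Against 24 h controls Nos1 rose by 3.04 (SE 0.19, edgeR, adjusted p = 2.96e-09), by 2.17 in C57BL/6J and by 3.90 in DBA/2J. It also rose against normoxia, by 0.72 (SE 0.14, edgeR, adjusted p = 0.000289), and against 6 h controls, by 0.74 (SE 0.13, edgeR, adjusted p = 0.00047). Nos1 and Pappa2 both had their lowest levels in the 24 h slices and their highest DBA/2J level in normoxia-hyperoxia.

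Sucnr1, the succinate receptor, was also low at 24 h in control slices, but the oxygen conditions parted it from Pappa2. C57BL/6J held 13.9, 8.06 and 11.9 CPM at 6 h and 0.647, 0.649 and 0.242 CPM at 24 h. DBA/2J held 21.6, 20.2 and 26 CPM at 6 h and 1.3, 1.57 and 1.76 CPM at 24 h. Neither strain's hours overlapped. In normoxia the levels were 25.5, 12.6 and 20.5 CPM in C57BL/6J and 67, 61.6 and 62.3 CPM in DBA/2J. All 3 DBA/2J normoxia libraries were above every other library of the series, while the C57BL/6J values overlapped those at 6 h. In normoxia-hyperoxia the levels were 0.586, 0.438 and 0.252 CPM in C57BL/6J and 2.3, 1.07 and 1.15 CPM in DBA/2J, which overlapped the 24 h controls of the same strain.

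The log2 ratio of Sucnr1 was -4.32 (SE 0.18) at 24 h against 6 h controls, with -4.61 in C57BL/6J and -4.03 in DBA/2J. Normoxia was above 24 h controls by 5.52 (SE 0.21) and above 6 h controls by 1.16 (SE 0.16). Normoxia-hyperoxia differed from 24 h controls by 0.01 (SE 0.34) and from normoxia by -5.50 (SE 0.24). Between those oxygen conditions Pappa2 differed by 0.96 (SE 0.23) in the other direction, so the genes that were chosen together as lost in culture did not share their oxygen pattern.

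Ptgs2 was high at 24 h, intermediate at 6 h and in normoxia-hyperoxia, and close to 0 in normoxia. C57BL/6J held 13.9, 28.8 and 16.3 CPM at 6 h and 177, 172 and 132 CPM at 24 h. DBA/2J held 48.5, 36.3 and 44.7 CPM at 6 h and 120, 155 and 108 CPM at 24 h. The hours did not overlap in either strain, and Ptgs2 rose by 2.08 (SE 0.18, edgeR, adjusted p = 8.1e-07), by 2.75 in C57BL/6J and 1.41 in DBA/2J. In normoxia the libraries held 0.481, 0.495 and 1.33 CPM in C57BL/6J and 0.696, 0.521 and 0.715 CPM in DBA/2J. Each of these 6 was below every other library of the series. The fall against 24 h controls was -7.39 (SE 0.20, edgeR, adjusted p = 4.67e-12), the largest ratio of any member in any comparison, and against 6 h controls it was -5.35 (SE 0.27, edgeR, adjusted p = 5.05e-09).

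Normoxia-hyperoxia slices held 22.3, 22.5 and 20 CPM of Ptgs2 in C57BL/6J and 40.1, 34.4 and 32.5 CPM in DBA/2J. These values lay between normoxia and 24 h controls without overlap and overlapped those of 6 h controls. Ptgs2 rose against normoxia by 5.21 (SE 0.17, edgeR, adjusted p = 1.05e-12) and fell by 2.19 against 24 h controls (SE 0.11, edgeR, adjusted p = 1.41e-09). Its difference from 6 h controls was -0.10 (SE 0.16, edgeR, adjusted p = 0.667). Among the 24 h drug groups its level spread widely, from 101 to 257 CPM in C57BL/6J tunicamycin slices and from 54.9 to 160 CPM in DBA/2J cyclosporin A slices.

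Ren1 had a wide spread between replicates, and its time difference was not called. C57BL/6J held 300, 126 and 511 CPM at 6 h and 111, 90.3 and 151 CPM at 24 h. DBA/2J held 613, 112 and 522 CPM at 6 h and 597, 142 and 638 CPM at 24 h. The hours overlapped in both strains. Ren1 differed by -0.84 on the log2 scale (SE 0.50, edgeR, adjusted p = 0.154), with -1.68 in C57BL/6J (edgeR, adjusted p = 0.067) and -0.01 in DBA/2J (edgeR, adjusted p = 0.99). Without DBA/2J 6 h control replicate 2, the library at 112 CPM, the mean was -1.06 (edgeR, adjusted p = 0.0465). A fit with the replicate number as a block also called the difference, as given below. Over all alternatives the adjusted p (edgeR) ran from 1.08e-25 with no filter on low counts to 0.317. Without the filter the fitted SE was 0.08 in place of 0.50, although the Ren1 counts were the same, so that fit does not carry the spread between these libraries.

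In normoxia Ren1 was 104, 69.7 and 105 CPM in C57BL/6J and 81.5, 36.8 and 91.2 CPM in DBA/2J. The DBA/2J libraries lay below every DBA/2J 24 h control, while the C57BL/6J groups overlapped. Ren1 fell by 1.25 on the log2 scale against 24 h controls (SE 0.39, edgeR, adjusted p = 0.0154), with -2.38 in DBA/2J (edgeR, adjusted p = 0.0043) and -0.11 in C57BL/6J (edgeR, adjusted p = 0.86). The difference between the strains was -2.27 (SE 0.78, edgeR, adjusted p = 0.0832), which was not called. It was called with DESeq2 (adjusted p = 0.0214), with the replicate block (edgeR, -2.11, adjusted p = 0.00169) and without DBA/2J 24 h control replicate 2 (edgeR, -2.81, adjusted p = 0.0107). Against 6 h controls Ren1 fell by 2.13 in normoxia (SE 0.49, edgeR, adjusted p = 0.00364) and by 1.87 in normoxia-hyperoxia (SE 0.48, edgeR, adjusted p = 0.0105).

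Normoxia-hyperoxia slices held 98.3, 62.7 and 63 CPM of Ren1 in C57BL/6J and 195, 58.4 and 142 CPM in DBA/2J. Both strains overlapped their 24 h controls. Ren1 fell by 1.04 against 24 h controls (SE 0.41, edgeR, adjusted p = 0.0457). That call was lost when any of 10 of the 12 libraries was left out, with adjusted p from 0.0503 to 0.0975 (edgeR), and was kept without DBA/2J 24 h control replicate 2 or DBA/2J normoxia-hyperoxia replicate 1. It was also lost in a fit of all 48 libraries (edgeR, adjusted p = 0.101). Against normoxia Ren1 differed by 0.22 (SE 0.33, edgeR, adjusted p = 0.569).

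In DBA/2J the spread of Ren1 followed the replicate number. There replicate 2 was the lowest library in 8 of 8 conditions, and the mean of replicates 1 and 3 was 2.35 to 7.82 times its value, with a median of 5.03. In C57BL/6J replicate 2 was the lowest in 6 of 8 conditions, with ratios of 0.901 to 4.17 and a median of 1.47. DBA/2J tunicamycin slices at 24 h held 883, 111 and 524 CPM in replicates 1, 2 and 3, and cyclosporin A slices 842, 124 and 398 CPM. The coefficient of variation of Ren1 was 41.6% to 79.7% over the DBA/2J conditions and 7.64% to 81.5% over those of C57BL/6J. In DBA/2J replicate 2 was also the lowest library in 7 of 8 conditions for Sucnr1 and 6 of 8 for Akr1b7, against 4 and 1 of 8 in C57BL/6J. DBA/2J tunicamycin slices at 24 h held 21.1, 20.8 and 25.6 CPM of Akr1b7. What the replicate number stands for is not given in the sources used here, and its part in the Ren1 results was not tested beyond the fit with the number as a block. With that block the time difference of Ren1 was called (edgeR, adjusted p = 0.00171).

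**Figure D2:**
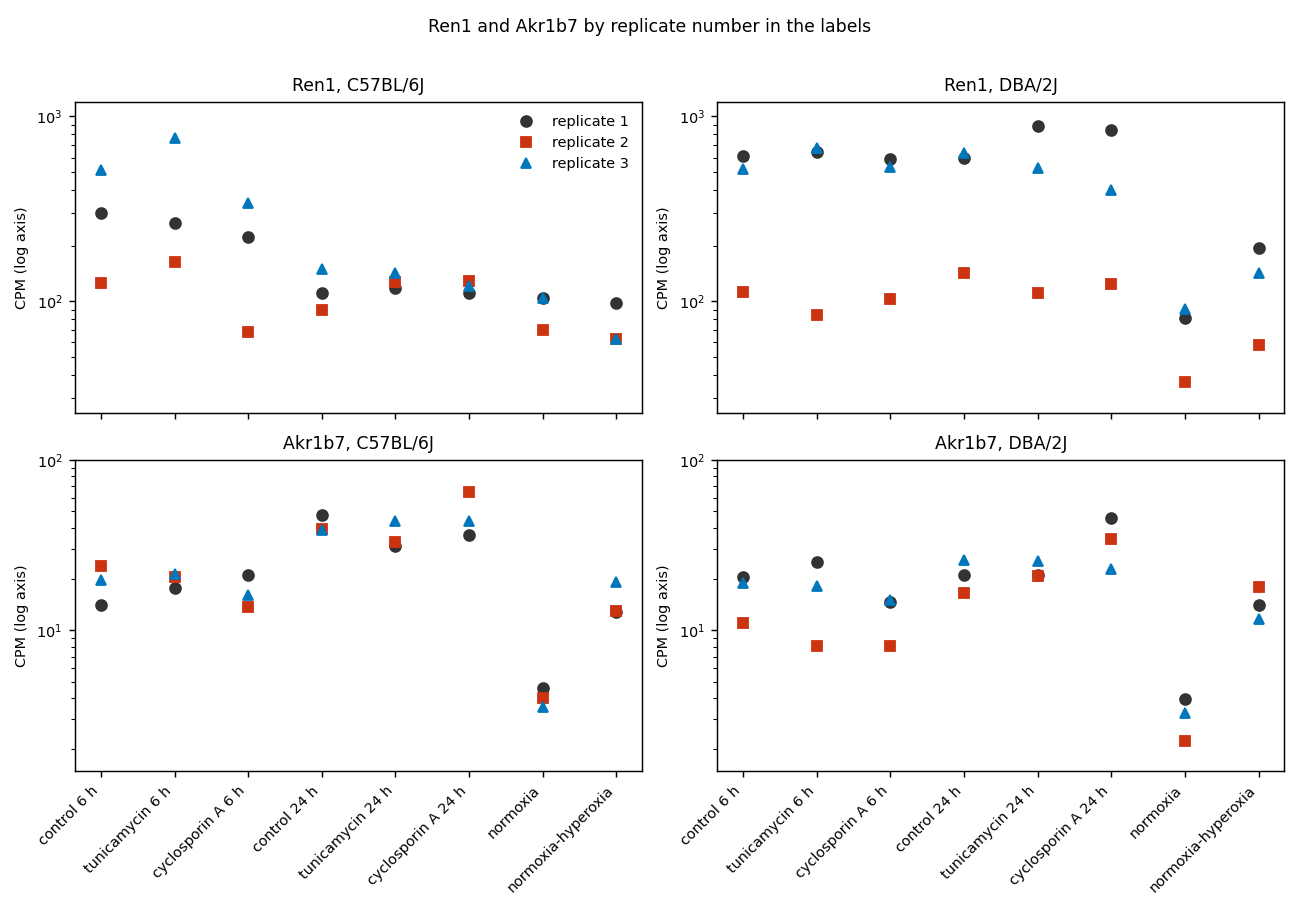
Level of Ren1 and Akr1b7 by condition and strain, in CPM on a log axis. Points are libraries, and their shape and colour give the replicate number. In DBA/2J every condition has its lowest Ren1 library at replicate 2, from 36.8 CPM in normoxia to 142 CPM in 24 h controls.

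Akr1b7, which is made in renin cells, was highest at 24 h and lowest in normoxia, as was Ptgs2. C57BL/6J held 14.1, 23.9 and 19.7 CPM at 6 h and 47.3, 39.1 and 38.7 CPM at 24 h, without overlap. DBA/2J held 20.6, 11.1 and 18.9 CPM at 6 h and 21.1, 16.4 and 25.7 CPM at 24 h, which overlapped. Akr1b7 rose by 0.50 (SE 0.18, edgeR, adjusted p = 0.021), with 0.85 in C57BL/6J (edgeR, adjusted p = 0.01) and 0.16 in DBA/2J (edgeR, adjusted p = 0.595). The call was lost without DBA/2J 24 h control replicate 3 (edgeR, 0.42, adjusted p = 0.0538), and over all alternatives the adjusted p ran from 1.57e-06 to 0.0538.

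In normoxia Akr1b7 was 4.59, 4.01 and 3.57 CPM in C57BL/6J and 3.93, 2.24 and 3.28 CPM in DBA/2J. All 6 lay below every other library of the series. It fell by 2.76 against 24 h controls (SE 0.14, edgeR, adjusted p = 8.76e-11) and by 2.31 against 6 h controls (SE 0.19, edgeR, adjusted p = 2.79e-07). Normoxia-hyperoxia slices held 12.8, 12.9 and 19.3 CPM in C57BL/6J and 14.1, 18 and 11.6 CPM in DBA/2J, above normoxia in every library. Against normoxia the rise was 1.93 (SE 0.16, edgeR, adjusted p = 2.66e-08), and against 24 h controls the change was -0.86 (SE 0.14, edgeR, adjusted p = 8.7e-05). Relative to 6 h controls the difference of -0.33 (SE 0.19, edgeR, adjusted p = 0.169) was not called, though it was with no filter on low counts (edgeR, -0.35, adjusted p = 0.00514) and without DBA/2J 6 h control replicate 2 (edgeR, -0.45, adjusted p = 0.041).

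No member passed the test for either drug. With tunicamycin 0 of 6 members were called at 6 h, beside 0% of all genes, and 0 of 6 at 24 h, beside 1.38%. With cyclosporin A 0 of 6 were called at 6 h and 0 of 6 at 24 h, beside 0% and 0% of all genes. DESeq2 also called 0 of 6 in each comparison. At an unadjusted p under 0.05 (edgeR) there was 1 member with tunicamycin at 24 h, Sucnr1, 1 with cyclosporin A at 24 h, Akr1b7, and 0 in the 6 h comparisons. Over all genes the unadjusted counts were 281 and 2174 for tunicamycin and 734 and 1107 for cyclosporin A at 6 h and 24 h, and DESeq2 called 0, 532, 50 and 20. At 24 h Sucnr1 held 1.74, 1.29 and 0.66 CPM in C57BL/6J tunicamycin slices and 1.69, 1.37 and 2.05 CPM in DBA/2J, a log2 difference from control of 0.68 (SE 0.27, edgeR, adjusted p = 0.287). Akr1b7 held 36.3, 65.1 and 44 CPM in C57BL/6J cyclosporin A slices and 45.7, 34.4 and 23 CPM in DBA/2J, a difference of 0.44 (SE 0.19, edgeR, adjusted p = 0.748). The largest difference at 6 h was -0.27 (SE 0.21, edgeR, adjusted p = 1.0), of Akr1b7 with cyclosporin A. A missed threshold does not show that the drugs left these genes alone.

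DBA/2J slices held more Pappa2 and Sucnr1 than C57BL/6J slices in each of the 4 conditions tested for strain. Pappa2 was higher by 1.23 (SE 0.16, edgeR, adjusted p = 8.73e-05) at 6 h, by 1.44 (SE 0.39, edgeR, adjusted p = 0.0159) at 24 h, by 1.44 (SE 0.34, edgeR, adjusted p = 0.00521) in normoxia and by 2.15 (SE 0.33, edgeR, adjusted p = 0.000639) in normoxia-hyperoxia. Sucnr1 was higher by 0.86 (SE 0.19, edgeR, adjusted p = 0.00443), 1.44 (SE 0.35, edgeR, adjusted p = 0.00798), 1.77 (SE 0.23, edgeR, adjusted p = 7.54e-05) and 1.81 (SE 0.54, edgeR, adjusted p = 0.0285) in the same order. The strains' libraries did not overlap for either gene in any of these conditions. The summed level of 8 proximal tubule marker genes was also higher in DBA/2J in all 4, without overlap. Per 1000 CPM of that sum, Sucnr1 libraries of the strains overlapped at 6 h (means of 2.99 in C57BL/6J and 3.45 in DBA/2J), at 24 h (1.06 and 1.11) and in normoxia-hyperoxia (2.3 and 2.03), and did not in normoxia (2.92 and 4.79). The part of these markers in the strain difference was not tested. The 24 h call of Pappa2, which rests on 2 to 11 counts a library, was lost without C57BL/6J 24 h control replicate 1 (edgeR, adjusted p = 0.0561) or DBA/2J 24 h control replicate 3 (edgeR, adjusted p = 0.0544). It was also lost in a fit of all 48 libraries (edgeR, adjusted p = 0.0834), as was that of Sucnr1 at 24 h (edgeR, adjusted p = 0.0749). Sucnr1 in normoxia-hyperoxia was not called without C57BL/6J replicate 2 (edgeR, adjusted p = 0.0813), C57BL/6J replicate 3 (0.0883) or DBA/2J replicate 1 (0.19).

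Of the other members, Nos1 was higher in DBA/2J at 6 h by 0.93 (SE 0.24, edgeR, adjusted p = 0.0104) and in normoxia-hyperoxia by 1.34 (SE 0.20, edgeR, adjusted p = 0.000169). Ptgs2 was higher in DBA/2J at 6 h by 0.98 (SE 0.26, edgeR, adjusted p = 0.0165) and in normoxia-hyperoxia by 0.63 (SE 0.17, edgeR, adjusted p = 0.0123). Akr1b7 was lower in DBA/2J at 24 h, by -1.02 (SE 0.25, edgeR, adjusted p = 0.0107), with every DBA/2J library below every C57BL/6J library. Ren1 was not called in any condition, the largest difference being 1.95 at 24 h (SE 0.73, edgeR, adjusted p = 0.0861). With no filter on low counts the Ren1 difference was called at 24 h, in normoxia and in normoxia-hyperoxia, with the small SE described above. At 24 h it was called with DESeq2 (adjusted p = 0.0437), with the replicate block (edgeR, adjusted p = 0.0107) and without DBA/2J replicate 2 of the 24 h controls (edgeR, 2.38, adjusted p = 0.0401) or of the 6 h controls (edgeR, 1.94, adjusted p = 0.0431). Ptgs2 at 6 h lost its call without C57BL/6J replicate 3 (edgeR, adjusted p = 0.0567), DBA/2J replicate 1 (0.0529) or DBA/2J replicate 3 (0.0505) of the 6 h controls, and in normoxia-hyperoxia without DBA/2J replicate 1 (0.066). In a fit of all 48 libraries neither was called (edgeR, adjusted p = 0.0651 and 0.251). In normoxia, of the fits run, Nos1 was called only without C57BL/6J normoxia replicate 1 (edgeR, 0.63, adjusted p = 0.027). In all, 4 of 6 members were called at 6 h, where 26.2% of genes were, 3 of 6 at 24 h (22.2%), 2 of 6 in normoxia (46.8%) and 4 of 6 in normoxia-hyperoxia (25.7%). How far reads of DBA/2J align less well to the C57BL/6J reference at these genes was not tested.

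The change itself differed between strains for 2 of 6 members in normoxia-hyperoxia against 24 h controls, where 1.43% of genes were called. The rise of Nos1 was larger in DBA/2J by 1.72 (SE 0.39, edgeR, adjusted p = 0.043), and the fall of Ptgs2 was smaller there by 1.01 (SE 0.22, edgeR, adjusted p = 0.0377). Nos1 lost its call in 9 of 12 fits that left out 1 library, with adjusted p from 0.0547 to 0.101 (edgeR), and kept it without replicate 2 of C57BL/6J 24 h controls, DBA/2J 24 h controls or DBA/2J normoxia-hyperoxia. Ptgs2 lost its call in 10 of 12, with adjusted p from 0.0543 to 0.0939 (edgeR), and kept it without C57BL/6J 24 h control replicate 3 or DBA/2J 24 h control replicate 2. In a fit of all 48 libraries Ptgs2 was not called (edgeR, adjusted p = 0.394). For time, 0 of 6 members differed by strain (edgeR, with 0.69% of genes called), 2 had an unadjusted p under 0.05 and DESeq2 called 1. For normoxia, 0 of 6 differed (edgeR, with 17% of genes called), 2 had an unadjusted p under 0.05 and DESeq2 called 1. In normoxia-hyperoxia against normoxia 1 of 6 differed, where 18.2% of genes were called. There Nos1 differed by 0.24 in C57BL/6J (edgeR, adjusted p = 0.319) and rose by 1.19 in DBA/2J (edgeR, adjusted p = 6.8e-05), a difference of 0.95 (SE 0.28, edgeR, adjusted p = 0.0313). That call was lost in 6 of 12 fits that left out 1 library, with adjusted p from 0.0557 to 0.0934 (edgeR): without replicate 1 of any of the 4 groups, DBA/2J normoxia replicate 2 or DBA/2J normoxia-hyperoxia replicate 3. For this term the replicate block also called Ren1 (edgeR, 1.02, adjusted p = 0.0121). Against 6 h controls 0 of 6 differed in normoxia (edgeR and DESeq2, 1 at an unadjusted p under 0.05, 3.66% of genes called), though the replicate block called Sucnr1 (edgeR, 0.91, adjusted p = 0.0023), and 0 of 6 in normoxia-hyperoxia (edgeR and DESeq2, 0 unadjusted, 0.232% of genes). In normoxia against 24 h controls the strain difference of Akr1b7 was 0.75 (SE 0.28, edgeR, adjusted p = 0.0836), and was called without DBA/2J normoxia replicate 2 (edgeR, 0.94, adjusted p = 0.0358). The replicate block called it as well, and over all alternatives its adjusted p ran from 0.00444 to 0.413.

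Markers of the tubule segment around the macula densa had the direction of Pappa2 and Nos1 in the contrasts of time and against 24 h controls. The summed level of 12 thick ascending limb genes was 15140 ± 1371 CPM (SD, n = 3) at 6 h and 4990 ± 1757 CPM at 24 h in C57BL/6J, and 11460 ± 1357 and 4560 ± 1975 CPM in DBA/2J. In normoxia it was 17670 ± 3727 CPM in C57BL/6J but 6726 ± 972.7 CPM in DBA/2J, where the libraries ran from 5809 to 7746 CPM, just above the 24 h controls and below the 6 h controls. In normoxia-hyperoxia it was 17570 ± 7123 and 16870 ± 978.8 CPM. All 12 fell between the hours, and all 12 rose in normoxia and in normoxia-hyperoxia against 24 h controls. Over all genes 37.4% fell with time, 42.4% rose in normoxia and 34.1% rose in normoxia-hyperoxia. Per 1000 CPM of the limb sum, Pappa2 was 0.466 ± 0.0504 at 6 h, 0.0416 ± 0.00895 at 24 h, 0.245 ± 0.0942 in normoxia and 0.41 ± 0.197 in normoxia-hyperoxia in C57BL/6J. In DBA/2J it was 1.59 ± 0.171, 0.148 ± 0.0701, 1.61 ± 0.388 and 1.71 ± 0.902. The ratio of Pappa2 was lower at 24 h in every library of both strains, for a gene that was chosen for its change in culture. The same ratio of Nos1 in C57BL/6J was 0.244 ± 0.0327 at 6 h and 0.322 ± 0.166 at 24 h, within the spread, while in DBA/2J it was 0.696 ± 0.159 and 0.251 ± 0.0202. Ptgs2 moved against the limb sum in these contrasts. In C57BL/6J its ratio was 0.9729 to 1.993 at 6 h, 26.04 to 42.34 at 24 h and 0.02342 to 0.07316 in normoxia. In DBA/2J it was 3.062 to 4.487, 19.22 to 52.4 and 0.0787 to 0.1231. In normoxia-hyperoxia it was 0.8962 to 1.835 in C57BL/6J and 1.951 to 2.325 in DBA/2J. Which cells carried the Ptgs2 change was not tested.

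Sucnr1 is also made outside the macula densa, and the summed level of 8 proximal tubule genes had the same order as Sucnr1. It was 3856 ± 1309 CPM at 6 h, 522 ± 116 at 24 h, 6559 ± 1455 in normoxia and 203.5 ± 59.3 in normoxia-hyperoxia in C57BL/6J. In DBA/2J it was 6538 ± 557.5, 1574 ± 580.2, 13340 ± 890.4 and 719 ± 153 CPM. All 8 genes fell with time, all 8 rose in normoxia, and 6 of 8 fell in normoxia-hyperoxia against 24 h controls. Over all genes 37.4% fell with time, 42.4% rose in normoxia and 34.1% fell in normoxia-hyperoxia. Per 1000 CPM of the proximal tubule sum, Sucnr1 was 2.99 ± 0.3, 1.06 ± 0.627, 2.92 ± 0.413 and 2.3 ± 1.47 in C57BL/6J, and 3.45 ± 0.188, 1.11 ± 0.516, 4.79 ± 0.466 and 2.03 ± 0.49 in DBA/2J. These ratios spanned a far narrower range than the Sucnr1 levels, and its ratio to the thick ascending limb sum did not narrow, at 9.56 ± 1.06 in DBA/2J normoxia and 0.089 ± 0.0388 in DBA/2J normoxia-hyperoxia. The part of either segment in the Sucnr1 result was not tested.

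For the renin cell genes the reference was 10 mural cell genes of arteriolar smooth muscle and pericytes, whose summed level was 685 CPM at 6 h, 553 at 24 h, 477 in normoxia and 603.5 in normoxia-hyperoxia in C57BL/6J and 620.5, 482, 255 and 479 CPM in DBA/2J as means of 3. Per 1000 CPM of that sum Akr1b7 was 28.8, 76.2, 8.5 and 25.4 in C57BL/6J and 27.2, 43.9, 13 and 30.4 in DBA/2J, highest at 24 h and lowest in normoxia in both strains, as for its level. Ren1 per 1000 CPM was 441, 212, 196 and 124 in C57BL/6J and 668, 969, 283 and 297 in DBA/2J. Akr1b7 is also an adrenal cortex gene, and the 10 adrenal cortex markers summed to between 81 and 144 CPM as means of the 16 groups, carried by Fdx1, Scarb1 and Star, which other cells also make. The defining enzymes of adrenal steroid synthesis were at or near 0: Cyp11b1 reached at most 0.0946 CPM and was at 0 in 45 of 48 libraries, Cyp11b2 0.0536 CPM and 46 libraries, Cyp21a1 0.0807 CPM and 41 libraries, and Cyp11a1 0.304 CPM and 22 libraries.

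**Figure D3:**
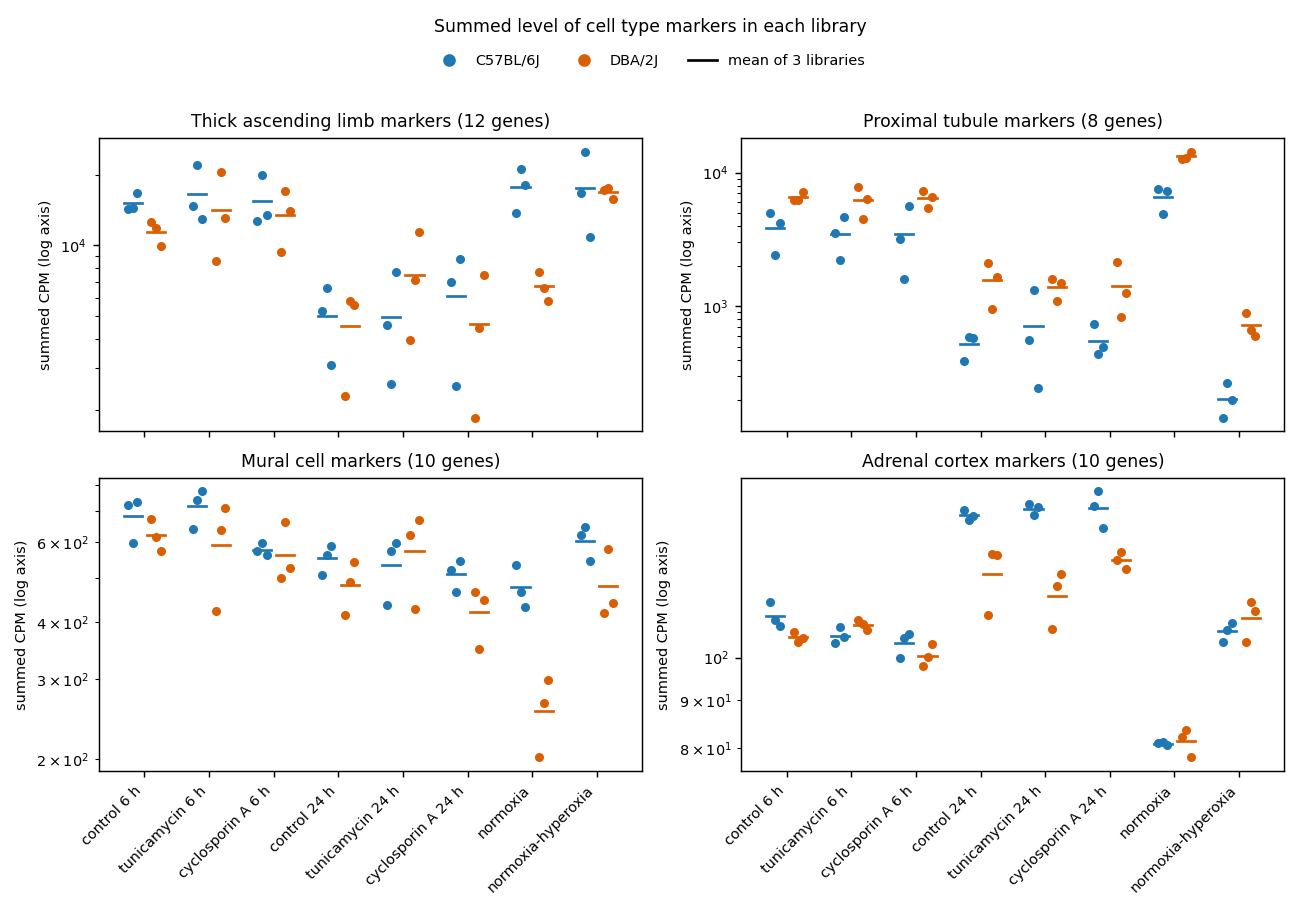
Summed level of the thick ascending limb (12 genes), proximal tubule (8), mural cell (10) and adrenal cortex (10) markers by condition and strain, in CPM on a log axis. Points are libraries and bars are means of 3. The proximal tubule sum runs from 203.5 CPM in C57BL/6J normoxia-hyperoxia to 13340 CPM in DBA/2J normoxia as group means, the order of Sucnr1.

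Other macula densa genes were read from a list of 12. Between 6 h and 24 h, 7 fell and 3 rose (median log2 fold change -1.33, beside -0.02 over all genes). Over all genes 34.7% rose and 37.4% fell with time, 42.4% rose and 39.7% fell in normoxia, and 34.1% rose and 34.1% fell in normoxia-hyperoxia. Kcnj1, the apical potassium channel that recycles potassium for salt uptake, fell by 2.76 (SE 0.13, edgeR, adjusted p = 6.86e-10), and Casr, the calcium-sensing receptor, fell by 2.66 (SE 0.21, edgeR, adjusted p = 3.98e-07). Slc12a1, the Na-K-2Cl cotransporter itself, fell by 1.96 (SE 0.32, edgeR, adjusted p = 0.000199), Avpr1a, a vasopressin receptor, by 2.63 (SE 0.13, edgeR, adjusted p = 3.78e-10), and Robo2 by 1.19 (SE 0.10, edgeR, adjusted p = 4.31e-08). The mitochondrial calcium uniporter subunit gene Mcub and Tmem158 rose, by 1.35 (SE 0.22) and 0.96 (SE 0.16) (edgeR, adjusted p = 5.74e-05 and 6.17e-05). Against 24 h controls 6 of 12 rose and 3 fell in normoxia (median 0.77, beside 0.05 over all genes), and 7 rose and 2 fell in normoxia-hyperoxia (median 1.65, beside 0.0036 over all genes). Robo2 differed between the oxygen conditions, with -0.07 (SE 0.10, edgeR, adjusted p = 0.522) in normoxia and a rise of 1.25 (SE 0.11, edgeR, adjusted p = 9.71e-08) in normoxia-hyperoxia. Slc12a1, Kcnj1 and Casr are also made along the thick ascending limb, whose marker sum fell with time and rose in both oxygen conditions as given above; its part in the change of this list was not tested. Oxtr, the oxytocin receptor, had a median of 0.408 CPM and was not called in any of the 3.

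In the prostaglandin list of 17, 5 rose and 9 fell with time (median -0.51), 7 rose and 10 fell in normoxia (median -0.76) and 9 rose and 4 fell in normoxia-hyperoxia (median 0.22). Over all genes 34.7% rose and 37.4% fell with time and 42.4% rose and 39.7% fell in normoxia. Ptges, the prostaglandin E synthase that acts on the product of Ptgs2, differed by 0.13 (SE 0.11, edgeR, adjusted p = 0.319) with time, fell by 3.46 in normoxia (SE 0.14, edgeR, adjusted p = 1.46e-10) and differed by 0.07 (SE 0.15, edgeR, adjusted p = 0.709) in normoxia-hyperoxia. Ptger4, the EP4 receptor through which prostaglandin E2 acts on renin cells, fell by 2.71 in normoxia (SE 0.13, edgeR, adjusted p = 1.64e-11). Between the oxygen conditions Ptges rose by 3.54 (SE 0.20, edgeR, adjusted p = 1.99e-08) and Ptger4 by 2.69 (SE 0.09, edgeR, adjusted p = 9.07e-13), the direction of Ptgs2. Hpgd, which breaks prostaglandins down, moved the other way from Ptgs2 in these 3 contrasts: it fell by 2.04 with time (SE 0.23, edgeR, adjusted p = 1.52e-06) and rose by 2.34 in normoxia (SE 0.12, edgeR, adjusted p = 2.96e-11) and 1.79 in normoxia-hyperoxia (SE 0.13, edgeR, adjusted p = 1.78e-08). Ptgfr, the prostaglandin F receptor, fell by 2.53 with time and rose by 2.62 and 2.96 (SE 0.11, 0.09 and 0.12, edgeR, adjusted p = 1.51e-10, 3.12e-13 and 6.02e-11). Slco2a1, a prostaglandin transporter, rose by 1.48 with time (SE 0.09, edgeR, adjusted p = 2.29e-09) and fell by 1.68 in normoxia-hyperoxia (SE 0.07, edgeR, adjusted p = 1.16e-10).

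**Figure D4:**
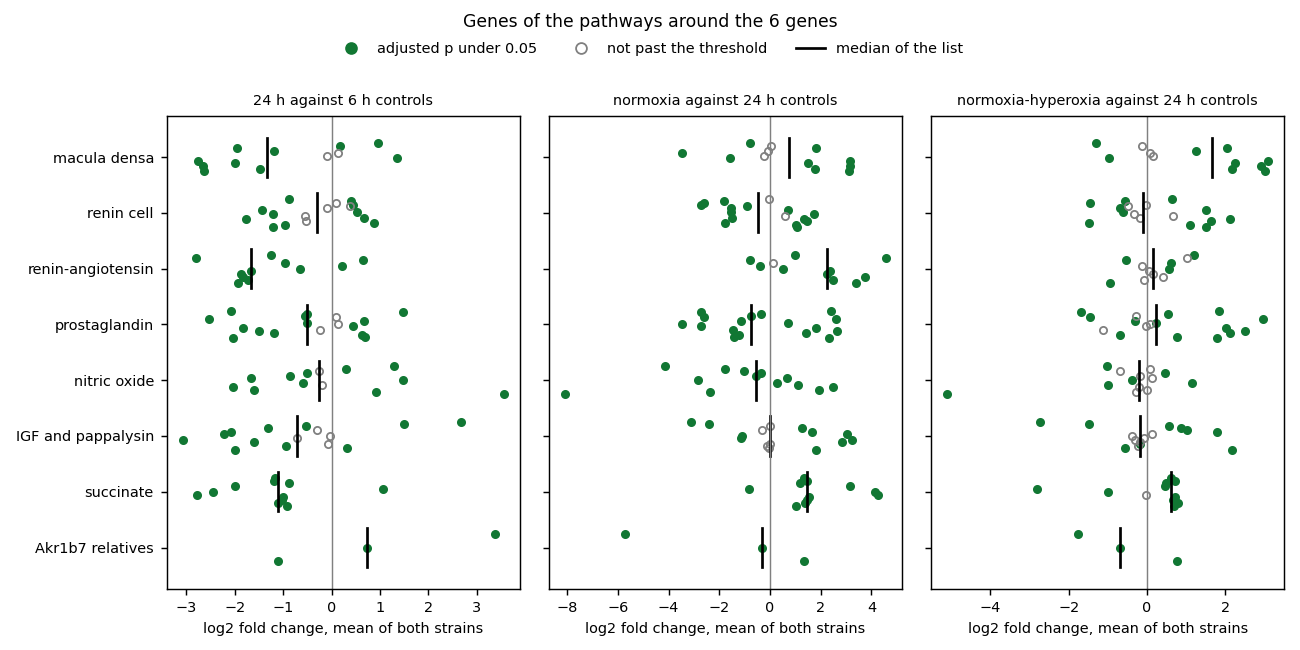
Log2 fold change of each gene of 8 lists at 24 h against 6 h controls and in normoxia and normoxia-hyperoxia against 24 h controls. Filled points have an edgeR adjusted p under 0.05 and the short line is the median of the list. The renin-angiotensin and succinate lists have medians of -1.66 and -1.10 with time and 2.25 and 1.44 in normoxia.

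Of 16 renin cell genes, 5 rose and 6 fell with time (median -0.31), 6 rose and 8 fell in normoxia (median -0.47) and 6 rose and 5 fell in normoxia-hyperoxia (median -0.10). The counts with time lie near the shares of all genes, of which 34.7% rose and 37.4% fell. Over all genes 42.4% rose and 39.7% fell in normoxia, and 34.1% rose and 34.1% fell in normoxia-hyperoxia. Gja5, connexin 40 of juxtaglomerular cells, fell by 1.22 with time (SE 0.24, edgeR, adjusted p = 0.000347), rose by 1.74 in normoxia (SE 0.22, edgeR, adjusted p = 3.05e-06) and differed by -0.34 in normoxia-hyperoxia (SE 0.30, edgeR, adjusted p = 0.328). Ptgir, the prostacyclin receptor, fell in normoxia by 2.61 (SE 0.22, edgeR, adjusted p = 2.65e-08) and in normoxia-hyperoxia by 1.45 (SE 0.20, edgeR, adjusted p = 1.26e-05). Adrb1, the adrenergic receptor that drives renin release, rose in both, by 1.44 (SE 0.22, edgeR, adjusted p = 1.75e-05) and 1.63 (SE 0.22, edgeR, adjusted p = 1.13e-05). Crip1 fell by 1.77 with time (SE 0.10, edgeR, adjusted p = 1.27e-09). It rose by 1.35 in normoxia (SE 0.10, edgeR, adjusted p = 3.07e-09) and by 2.12 in normoxia-hyperoxia (SE 0.10, edgeR, adjusted p = 2.59e-10). Tbx18 was at 0 in 40 of 48 libraries.

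In the renin-angiotensin list outside renin, 2 of 11 rose and 9 fell with time (median -1.66). In normoxia 8 rose and 2 fell (median 2.25), and in normoxia-hyperoxia 3 rose and 2 fell (median 0.14). The share of all genes was 37.4% falling with time and 42.4% rising in normoxia. Agt, angiotensinogen, which renin cleaves, fell by 1.83 with time (SE 0.22, edgeR, adjusted p = 2.98e-06), rose by 3.73 in normoxia (SE 0.26, edgeR, adjusted p = 1.1e-07) and differed by 0.42 in normoxia-hyperoxia (SE 0.33, edgeR, adjusted p = 0.274). Ace, angiotensin-converting enzyme, fell by 1.93 (SE 0.18, edgeR, adjusted p = 1.67e-06), rose by 3.38 (SE 0.15, edgeR, adjusted p = 1.06e-09) and fell by 0.95 (SE 0.24, edgeR, adjusted p = 0.00395) in the same order. Agtr1a, the main angiotensin II receptor, fell by 1.87 (SE 0.17, edgeR, adjusted p = 4.18e-07), rose by 2.25 (SE 0.12, edgeR, adjusted p = 6.11e-10) and differed by 0.14 (SE 0.17, edgeR, adjusted p = 0.472). The 8 proximal tubule markers also fell with time and rose in normoxia, and their part in the change of this list was not tested. As the mean of both strains, the direction of Agt, Ace and Agtr1a in normoxia was opposite to that of Ren1, which fell there. The Ren1 fall lay in DBA/2J, as given above. In the other strain the Ren1 levels of normoxia and control libraries overlapped.

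The Pappa2 and insulin-like growth factor list had 15 genes, of which 3 rose and 8 fell with time (median -0.71), 6 rose and 4 fell in normoxia (median -0.0031) and 5 rose and 4 fell in normoxia-hyperoxia (median -0.18). Beside these, 34.7% of all genes rose and 37.4% fell with time. Stc1 and Stc2, whose proteins inhibit this protease family, moved against Pappa2. Stc2 rose by 2.67 with time (SE 0.16, edgeR, adjusted p = 9.67e-09) and fell by 3.13 in normoxia (SE 0.08, edgeR, adjusted p = 2.28e-14) and 2.73 in normoxia-hyperoxia (SE 0.11, edgeR, adjusted p = 6.12e-11). Stc1 rose by 1.5 and fell by 2.41 and 1.48 (SE 0.23, 0.15 and 0.13, edgeR, adjusted p = 8.95e-05, 1.38e-08 and 6.43e-07). Igfbp5, which encodes a substrate of the protease, fell by 2.08 with time (SE 0.08, edgeR, adjusted p = 7.02e-11) and rose by 1.65 and 1.80 (SE 0.10 and 0.11, edgeR, adjusted p = 5.5e-10 and 6.55e-09). Igfbp3, which encodes the other substrate, differed by -0.04 with time (SE 0.17, edgeR, adjusted p = 0.861), fell by 1.12 in normoxia (SE 0.21, edgeR, adjusted p = 0.00057) and differed by -0.39 in normoxia-hyperoxia (SE 0.19, edgeR, adjusted p = 0.0922). The related protease gene Pappa fell with time by 0.54 (SE 0.16, edgeR, adjusted p = 0.00841).

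In the nitric oxide list of 13, 5 rose and 6 fell with time (median -0.26), 5 rose and 8 fell in normoxia (median -0.56) and 2 rose and 4 fell in normoxia-hyperoxia (median -0.21). All genes gave 34.7% and 37.4% with time and 42.4% and 39.7% in normoxia. Nos3, the endothelial synthase, had another order than Nos1: it rose by 0.30 with time (SE 0.11, edgeR, adjusted p = 0.0203), fell by 1.79 in normoxia (SE 0.10, edgeR, adjusted p = 1.29e-10) and differed by 0.07 in normoxia-hyperoxia (SE 0.11, edgeR, adjusted p = 0.615). Ass1, argininosuccinate synthase, which remakes the arginine that nitric oxide synthases use, fell by 2.05 with time (SE 0.17, edgeR, adjusted p = 3.24e-07) and rose by 2.49 in normoxia (SE 0.17, edgeR, adjusted p = 3.26e-08). Asl moved as Ass1 did, falling by 1.61 and rising by 1.93 (SE 0.13 and 0.11). Other genes of the list moved the opposite way. Slc7a1 rose by 1.30 with time and fell by 4.14 in normoxia (SE 0.16 and 0.10). Gch1 rose by 1.47 and fell by 2.86 (SE 0.17 and 0.14), and Arg1 rose by 3.56 and fell by 8.10 (SE 0.52 and 0.69). The proximal tubule markers fell with time and rose in normoxia, and their part in the change of Ass1 was not tested.

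Of 11 succinate genes, 1 rose and 10 fell with time (median -1.10), 10 rose and 1 fell in normoxia (median 1.44), and 8 rose and 2 fell in normoxia-hyperoxia (median 0.63). Of all genes 37.4% fell with time, 42.4% rose in normoxia and 34.1% rose in normoxia-hyperoxia. Slc13a3, a dicarboxylate carrier that takes up succinate, fell by 2.46 with time (SE 0.25, edgeR, adjusted p = 3.11e-06), rose by 4.16 in normoxia (SE 0.23, edgeR, adjusted p = 1.9e-08) and fell by 0.99 in normoxia-hyperoxia (SE 0.19, edgeR, adjusted p = 0.000561). Slc13a2, another such carrier, fell by 2.77 (SE 0.25, edgeR, adjusted p = 5.84e-07) and rose by 4.27 (SE 0.13, edgeR, adjusted p = 6.63e-14) in the first 2 contrasts. Both carriers are made in the proximal tubule, and all 8 proximal tubule markers also fell with time and rose in normoxia; their part in the change of the carriers was not tested. Among genes of succinate dehydrogenase, which consumes succinate, Sdhb and Sdhd rose in normoxia-hyperoxia by 0.80 (SE 0.07, edgeR, adjusted p = 8.68e-08) and 0.72 (SE 0.07, edgeR, adjusted p = 6.06e-07).

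The aldo-keto reductase relatives of Akr1b7 did not move as 1 group. Akr1b8 rose by 3.38 with time (SE 0.21, edgeR, adjusted p = 5.07e-08) and fell by 5.71 in normoxia (SE 0.11, edgeR, adjusted p = 3.77e-15) and 1.75 in normoxia-hyperoxia (SE 0.16, edgeR, adjusted p = 1.7e-06), the directions of Akr1b7 with larger ratios. Akr1b3, aldose reductase, rose by 0.73 (SE 0.10, edgeR, adjusted p = 1.65e-05) and fell by 0.31 (SE 0.09, edgeR, adjusted p = 0.00411) and 0.69 (SE 0.10, edgeR, adjusted p = 1.34e-05). Akr1b10 moved the other way, falling by 1.11 (SE 0.10, edgeR, adjusted p = 9.46e-08) and rising by 1.34 (SE 0.07, edgeR, adjusted p = 4.28e-11) and 0.77 (SE 0.08, edgeR, adjusted p = 5.55e-07). Reads shared between these related genes could be split by the counting, so Akr1b7 and Akr1b8 in particular are uncertain to that extent.

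Across the 16 group means of log2 CPM, which share strains, hours and controls, some of the members fell into pairs. Pappa2 and Nos1 had a Pearson correlation of 0.962, and Ptgs2 and Akr1b7 one of 0.926. Sucnr1 correlated with Pappa2 at 0.687, with Nos1 at 0.599 and with Ptgs2 at -0.708. Ren1 had no close partner, with correlations from -0.0323 to 0.376. Among 12285 genes, those most like Pappa2 were Pi16 (0.984), Cdc42bpg (0.981) and Atp5o (0.98), and those most like Nos1 were Vps13c (0.967), Tmem72 (0.965) and Pappa2. Sucnr1 was most like Aadac (0.991), Hlf (0.99) and Alpl (0.988). Ptgs2 was most like Hilpda (0.993), Slc16a3 (0.989) and Krt19 (0.987), and Akr1b7 most like Hmga1 (0.977), Inhbb (0.972) and Tcirg1 (0.965). For Ren1 the highest values were lower than for the others, with Pcdh18 (0.854), Rps21 (0.852) and Stxbp3 (0.841). These correlations are over 16 points and carry no test.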

How the data were processed

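The authors deposited 1 table of raw counts per gene for 48 libraries. Per the submitters' processing notes, it was made with bcl2fastq 2.20.0, FastQC 0.11.8, STAR 2.7.9a, featureCounts 1.5.1 and GRCm38. The labels give male kidney, total RNA and a stranded mRNA library kit. The strand setting, annotation release and adapter handling are not given in the sources used here. All 48 columns were matched to samples by name. Of 55487 Ensembl IDs, 55141 had a symbol and 55227 were in GENCODE M21.

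Each comparison was fitted in edgeR 4.0.16 (R 4.3.3, limma 3.58.1) on its 12 libraries and 4 groups, with TMM scaling, filterByExpr and the robust quasi-likelihood F test (8 residual degrees of freedom). P-values were Benjamini-Hochberg adjusted over all genes tested. The code was tested on simulated counts.

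Members and gene lists were chosen with earlier results of these data known, so no list carries a set test. Genes were named by rule: the 6 members, a set of related pathway genes, up to 2 rising and 2 falling called genes per list, and the 3 most correlated genes per member. Some genes the rule allows are not reported here. Alternatives were relative log expression (RLE) scaling, library totals, no mitochondrial genes, no filter, DESeq2 1.42.0, all 48 libraries in 1 fit, a replicate block, leaving out each library and a threshold of 0.01. The labels do not say that a replicate number marks a shared animal or batch. In 0 of 10 comparisons did all same-numbered pairs correlate above 0.1, so the main fits did not treat the samples as paired. This rule is strict and does not show that the samples were unpaired. Calls that the replicate block changed are given below.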

Additional observations from a re-analysis of the deposited data

Results flagged for a closer look

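In normoxia-hyperoxia against 24 h controls, the change of 2 members differed between the strains by the test of the difference itself. Nos1 rose by 2.17 on the log2 scale in C57BL/6J and by 3.90 in DBA/2J, a difference of 1.72 (edgeR, adjusted p = 0.043), higher in all 3 DBA/2J normoxia-hyperoxia libraries than in any C57BL/6J library. Ptgs2 changed by -2.70 in C57BL/6J and -1.69 in DBA/2J, a difference of 1.01 (edgeR, adjusted p = 0.0377). The call was lost in 9 of 12 fits that left out 1 library for Nos1 and in 10 of 12 for Ptgs2, and that of Ptgs2 also in a fit of all 48 libraries (edgeR, adjusted p = 0.394). The strains' Ptgs2 libraries overlapped in the 24 h controls and not in normoxia-hyperoxia. In normoxia-hyperoxia against normoxia Nos1 also differed between the strains, by 0.95 (edgeR, adjusted p = 0.0313), with 0.24 in C57BL/6J and 1.19 in DBA/2J. That call was lost in 6 of 12 such fits.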

How the results depend on the processing

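The members had 108 tested values: time and oxygen for 4, and drug, strain and the time and oxygen strain-by-condition terms for 6. RLE scaling, library totals and removal of mitochondrial genes kept all 108 on their side of the threshold. DESeq2 gave an adjusted p for 103 and added 4 calls. No filter on low counts added 21, among them 10 of Ren1, whose fitted SE fell to 0.08 with time from 0.50, while the fit of 48 libraries lost 6. Leaving out 1 library gave 1296 values, of which 1241 kept their side, 45 lost a call and 10 gained one, and 71 turned sign, all uncalled.

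The counts of called members moved as follows, and the cause was not tested. For the strain difference at 24 h the count was 5 with no filter, 1 in the fit of 48 libraries and 1 at a threshold of 0.01. At that threshold it was 1 in normoxia-hyperoxia against 6 h controls, 2 for the strain difference at 6 h, 2 for that in normoxia-hyperoxia and 0 for the strain-by-condition term in normoxia-hyperoxia. For the latter term it was 4 with no filter and 1 in the fit of 48 libraries. For the term in 24 h against 6 h controls it was 4 with no filter and 1 with DESeq2, and for the term in normoxia 2 with no filter and 1 with DESeq2. For the term in normoxia-hyperoxia against normoxia it was 3 with no filter, 2 with the block and 0 at the threshold of 0.01. For the terms against 6 h controls it was 3 with no filter and 1 with the block in normoxia, and 1 with no filter in normoxia-hyperoxia. Leaving out single libraries gave 2 to 4 members for the strain difference in normoxia-hyperoxia, 0 to 1 for the term with time, 0 to 1 for the term in normoxia and 0 to 2 for the term in normoxia-hyperoxia. It gave 0 to 2 for the term against normoxia (2 without DBA/2J normoxia-hyperoxia replicate 2) and 0 to 1 for normoxia against 6 h controls (1 without C57BL/6J 6 h control replicate 2). The lowest count of 2 came without DBA/2J normoxia-hyperoxia replicate 1, and the 1 with time came without C57BL/6J 6 h control replicate 2. The 1 in normoxia came without replicate 2 of DBA/2J 24 h controls or of DBA/2J normoxia.

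Among the time, oxygen and strain differences, values that changed sign in fits leaving out 1 library ran from -0.13 to 0.074 for Nos1 in normoxia against 6 h controls, from -0.20 to 0.11 for Ptgs2 in normoxia-hyperoxia against 6 h controls, from -0.11 to 0.83 for the strain difference of Ren1 at 6 h, from -0.39 to 0.49 for that of Ptgs2 in normoxia and from -0.30 to 0.032 for that of Akr1b7 in normoxia-hyperoxia.

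With the replicate block, 102 of 108 values were kept and 6 gained a call: Ren1 with time (edgeR, adjusted p = 0.00171), Ren1 by strain at 24 h (0.0107), and the strain-by-condition terms of Ren1 (0.00169) and Akr1b7 (0.027) in normoxia, where the block called 2 members, of Sucnr1 in normoxia against 6 h controls (0.0023) and of Ren1 in normoxia-hyperoxia against normoxia (0.0121). Of 60 pairs of same-numbered samples 29 correlated above 0.1 and 41 best with their own number, and in 5 of 20 sets of 1 comparison in 1 strain all 3 pairs were above 0.1. This is a hint from the data, not from the design, that some numbers mark something shared.

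All-gene counts also moved. The strain-by-condition term called 117 genes with time (817 with no filter, 360 with DESeq2, 71 with the block) and 247 in normoxia-hyperoxia (1156, 679 and 618, and 409 in the fit of 48 libraries). Against 6 h controls it called 616 in normoxia (1536, 1170 and 1462) and 39 in normoxia-hyperoxia (712 with no filter, 268 with DESeq2, 100 in the fit of 48 libraries). Tunicamycin at 24 h called 233 (395 with no filter, 532 with DESeq2), and cyclosporin A called 0 (50 at 6 h and 20 at 24 h with DESeq2). With library totals the higher and lower calls were 7580 and 4969 with time in place of 5883 and 6338, 5935 and 8360 in normoxia in place of 7359 and 6891, and 4699 and 7347 in normoxia-hyperoxia in place of 5881 and 5891. For DBA/2J against C57BL/6J they were 3894 and 1247 at 6 h in place of 2299 and 2151, and 3370 and 1187 in normoxia-hyperoxia in place of 2470 and 1953. For the strain-by-condition terms they were 43 and 114 with time (71 and 46), 966 and 1584 in normoxia (1761 and 1195, and 1146 and 1442 without mitochondrial genes) and 186 and 50 in normoxia-hyperoxia (164 and 83), 1749 and 745 in normoxia-hyperoxia against normoxia (1241 and 1893) and 129 and 742 in normoxia against 6 h controls (312 and 304). Depth limits Pappa2 in C57BL/6J at 24 h, at 6 to 11 counts over the 3 libraries of a group.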
